A study of Mus musculus with 21 samples.

Results

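Alveolar type 2 (AT-2) cells of the lung were chosen cell by cell from their transcripts. A cell was taken if it held a unique molecular identifier (UMI, the tag that marks 1 captured transcript) of at least 4 of the 7 genes Sftpc, Sftpb, Sftpa1, Sftpd, Slc34a2, Lamp3 and Cxcl15, among them Slc34a2 or Lamp3. It was dropped if it held a UMI of Ptprc (leukocytes), Col1a2 (fibroblasts), Pecam1 (endothelium) or Sec14l3 (ciliated cells). This gave 379 cells out of the 45034 cells of unchallenged lung and of the lung metastasis tumor microenvironment (TME), and the whole series held 100359 cells once identical libraries had been counted a single time. These 11 genes chose the cells, so their levels are given only as a description.

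AT-2 cells are cuboidal epithelial cells in the corners of the alveoli. They make pulmonary surfactant, a film of phospholipid and surfactant proteins that lowers surface tension, store it in lysosome-related lamellar bodies and secrete it onto the alveolar surface. They are also the progenitors of the flat alveolar type 1 (AT-1) cells, and under injury they can pass through a transitional keratin-rich state. They secrete antimicrobial proteins such as lysozyme and lipocalin as part of lung defense.

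The study examined the stroma of melanoma metastases with droplet-based single-cell RNA sequencing (10x Genomics). Fragments of MT-ret melanoma, a transplantable mouse melanoma, were placed under the skin of young adult mT/mG mice of both sexes, the primary tumor was resected, and lung metastases were collected later together with a small rim of adjacent lung. The mT/mG allele expresses membrane tdTomato in all host cells, and no Cre was present, so that host TME cells were red and melanoma (MM) cells were not. TME cells were sorted as living tdTomato+ cells with or without removal of CD45+ leukocytes, tdTomato- MM cells formed separate samples, and unchallenged lung of mice without tumor served as control. The sources do not say which gate each library had. All samples had been frozen as cell suspensions before library preparation, and the deposited library names place metastasis replicate 1-3 in run 1, replicate 4 in run 2, and replicates 5 and 6 in run 3. Lung replicate 1 was matched to the 1 unchallenged lung name that remained, which is of run 1 but carries the number 2, so its run rests on that match. The paper's methods give 3 unchallenged lungs, fewer than the 4 lung libraries that were deposited and are counted here as samples. Metastasis TME replicate 1-3 pooled 2 of the deposited libraries, and replicates 7 and 8 of the metastasis TME held the same values as replicates 5 and 6 and were counted with them as 1 sample each. The values of metastasis TME replicate 6 were also deposited under a library name of the MM sort, and without it the AT-2 fit below called 5 genes in place of 1 and the endothelial fit 29 in place of 119.

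Library depth ranged from 2750267 to 53506609 UMIs over the 8 lung and metastasis TME libraries. The unchallenged lung held 12 AT-2 cells in replicate 1, 4 in replicate 4, 53 in replicate 5 and 192 in replicate 6, together 261 of 37386 cells or 0.698% (exact 95% binomial interval 0.616% to 0.788%). The metastasis TME held 5 in replicate 1-3, 0 of 661 cells in replicate 4, 108 in replicate 5 and 5 in replicate 6, together 118 of 7648 cells or 1.54% (1.28% to 1.84%). The 0 in replicate 4 allows a share of up to 0.454%, and intervals and floors cover counting error only. The share per library ran from 0.0979% to 0.905% in lung and from 0% to 2.09% in metastasis, so the groups overlapped, and since the gate of each library is unknown the shares were not tested. The 4 excluding genes removed 2258 of 2519 lung cells and 93 of 211 metastasis cells with enough markers, 1724 of them in lung replicate 6 for a Ptprc UMI. Primary tumor TME, which grows under the skin, held 0 of 6477 such cells, which allows up to 0.0463%.

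Every value of the tissue comparison rests on few cells in most libraries. Metastasis replicate 5 gave 108 of the 118 metastasis cells and lung replicate 6 gave 192 of the 261 lung cells. Summed over the AT-2 cells of a library, the depth was 103657, 28562, 256481 and 322391 UMIs in lung replicates 1, 4, 5 and 6, and 35189, 387733 and 19018 UMIs in metastasis replicates 1-3, 5 and 6. One UMI was therefore worth 52.6 counts per 1000000 (CPM) in metastasis replicate 6 and 2.58 CPM in metastasis replicate 5. Levels are given below as CPM of this sum, always in the order lung 1, 4, 5, 6 and metastasis 1-3, 5, 6.

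The genes that chose the cells were high in all 7 libraries. Sftpc, which encodes surfactant protein C and lies on the minus strand of chromosome 14 from 70520949 to 70524081 (GRCm38), stood at 158243, 154821, 132092 and 47070 CPM in lung and at 183438, 133102 and 39699 CPM in metastasis. Slc34a2, the phosphate transporter that recovers phosphate from surfactant, ranged from 2766 to 5930 CPM in lung and from 2845 to 4604 CPM in metastasis. Lamp3, a lamellar body membrane protein, ranged from 884 to 1333 CPM and from 767 to 999 CPM. Lung replicate 6 and metastasis replicate 6 had the lowest Sftpc of their groups.

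The label was checked against 6 AT-2 genes that played no part in the choice. Napsa (the protease that processes surfactant proteins B and C), Hc (complement C5), Nkx2-1 (the lung epithelial transcription factor), Lpcat1 and Abca3 (synthesis and transport of surfactant phospholipid) and Etv5 (a factor that maintains AT-2 identity) were all higher in the AT-2 cells than in endothelial cells of the same library, in 7 of 7 libraries. Napsa was 1862, 1611, 1875 and 968 CPM in lung and 1989, 1932 and 1262 CPM in metastasis AT-2 cells, against 0 to 52.4 CPM in endothelial cells. Nkx2-1 ranged from 140.0 to 675 CPM against 0 to 12.6 CPM, and Abca3 from 421 to 963 CPM against 60.0 to 106 CPM. The endothelial cells (4527 in all) were chosen by 3 of 6 endothelial genes and serve here as a resident cell type from the same suspensions. Club cells were not compared, so this check does not tell AT-2 cells from other lung epithelial cells.

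**Figure D1:**
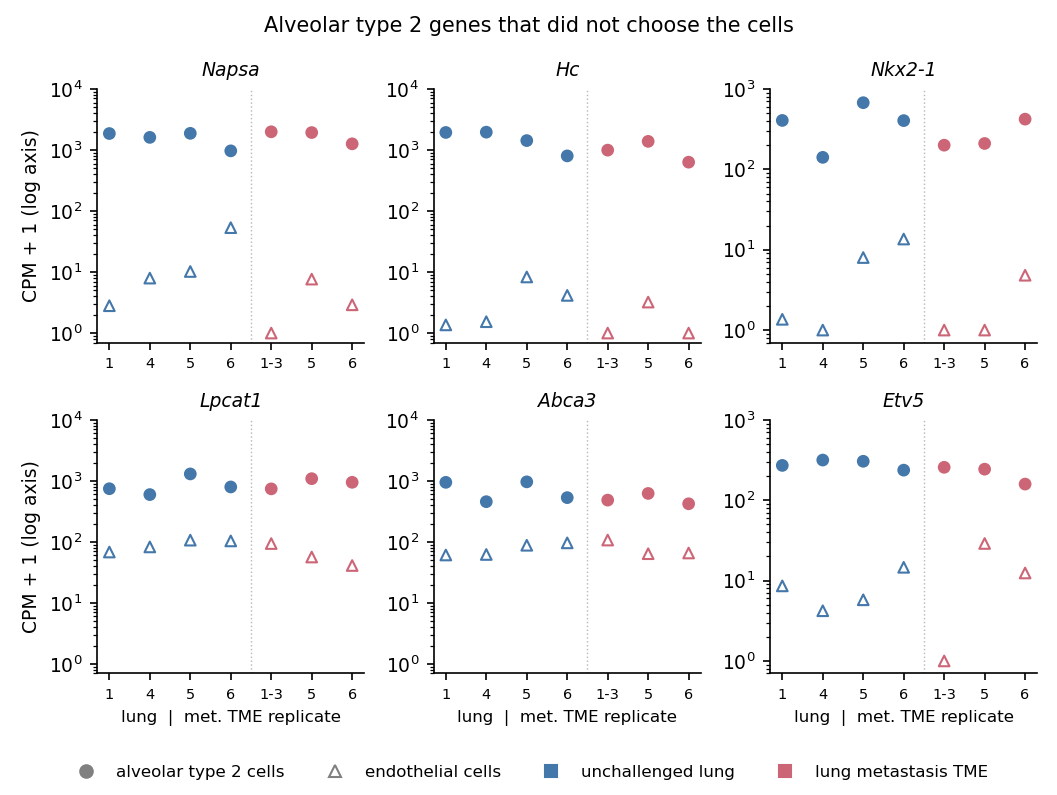
Level of 6 alveolar type 2 genes that did not choose the cells, in CPM + 1 on a log axis, for each lung (blue) and metastasis TME (red) library, in alveolar type 2 cells (filled circles) and endothelial cells (open triangles). The circles lie above the triangles in all 7 libraries for all 6 genes, for Napsa at 968 to 1989 CPM against 0 to 52.4 CPM.

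The cells were not uniform. The share of a cell's UMIs that came from the 4 surfactant protein genes had a median of 19.9%, 11.2%, 15.6% and 3.21% in lung and of 19.5%, 9.86% and 2.31% in metastasis, against at most 0.0552% in endothelial cells of any library. In metastasis replicate 5 the middle 50% of cells ran from 3.70% to 21.6%, and the plot shows a high and a low cloud. At least 5% of UMIs came from surfactant in 9 of 12, 2 of 4, 49 of 53 and 68 of 192 lung cells and in 5 of 5, 73 of 108 and 1 of 5 metastasis cells. Lung replicate 6 and metastasis replicate 6 were thus the libraries in which most chosen cells were low.

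**Figure D2:**
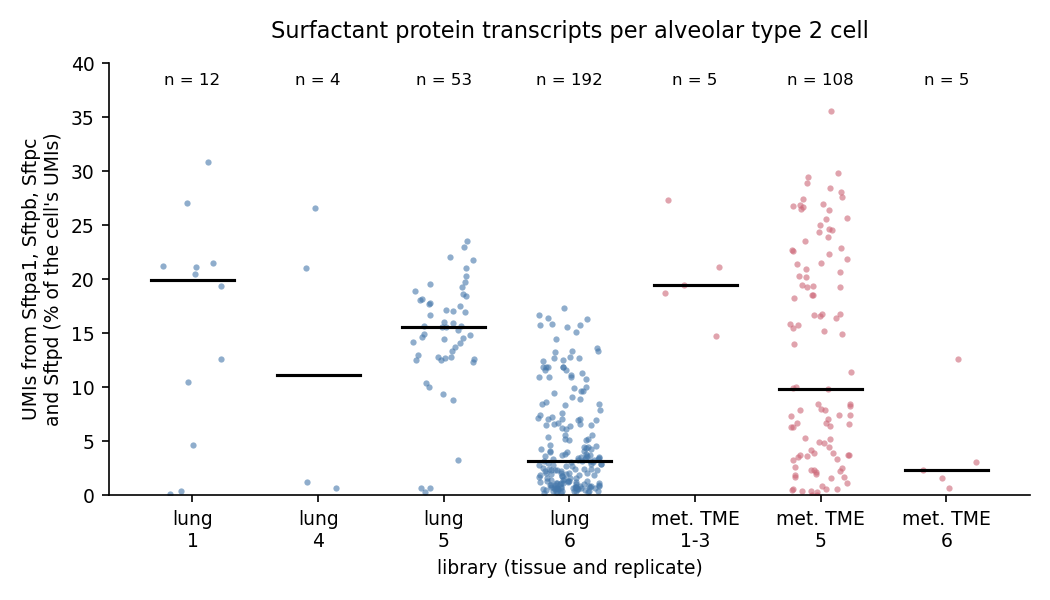
Percentage of each alveolar type 2 cell's UMIs that came from Sftpa1, Sftpb, Sftpc and Sftpd, 1 point per cell and a black line at the median, by library. Medians run from 2.31% (metastasis replicate 6) to 19.9% (lung replicate 1), and metastasis replicate 5 spreads from near 0% to 35.5%.

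The cells just inside the threshold held AT-2 genes that played no part in the choice less often than the rest. The surfactant share falls with the number of rule genes by construction, since 4 of the 7 are surfactant genes, and is given as a description. The 46 cells with 4 of the 7 genes had a median of 0.647% surfactant UMIs, the 40 with 5 genes 1.49%, the 81 with 6 genes 3.54% and the 212 with all 7 genes 13.9%, while 53 cells just outside the threshold, with 3 genes, had 0.154%. Cells with at least 1000 UMIs were thinned at random to 1000 UMIs, and shallower cells were left out. A UMI of Napsa, Hc, Nkx2-1, Lpcat1, Abca3 or Etv5 was then found in 50.0% of 42 cells with 4 genes, 60.6% of 33 with 5, 88.4% of 69 with 6 and 98.1% of 206 with 7, against 15.8% of 4229 endothelial cells. Without thinning the shares were 67.4%, 77.5%, 90.1% and 99.1% against 41.5%, at median depths of 1291.5, 1322, 1438 and 3126.5 UMIs against 3078. By these 6 genes the name is weakest for the cells with 4 or 5 genes. The 7-library fit below was also run on the cells with at least 5% surfactant UMIs, while the test against endothelial cells was run on all cells alone.

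Low-surfactant cells also carried transcripts of other cells. In lung replicate 6 the 124 cells with under 5% surfactant UMIs had 2326 CPM of Chil3 (alveolar macrophages), 3346 CPM of S100a8 (neutrophils) and 8918 CPM of Igkc (B cells and plasma cells), against 347, 743 and 139 CPM in the 68 cells above that limit. Igkc lay in few cells: 25 of the 124 low cells and 12 of the 68 high cells held a UMI, and 3 low cells held 988 of its 1591 UMIs. In metastasis replicate 5 the 35 low cells had 55548 CPM of Scgb1a1 (secretory protein of club cells) and 979 CPM of Lyz2 (lysozyme, high in AT-2 cells and macrophages), against 3496 and 19414 CPM in the 73 high cells. Of the 5332 Scgb1a1 UMIs of those low cells 3 cells held 4858, and the other 32 held at most 35 each, or 5632 CPM. Scgb1a1 exceeded Sftpc in 2, 1, 3 and 10 lung cells and in 0, 12 and 3 metastasis cells. In the 3 such cells of metastasis replicate 6 it made up 393011 CPM, and in the 2 of lung replicate 1 466661 CPM, which goes against the AT-2 name for those cells. Doublets were not removed by a caller, and cells above 2 times the median depth of the AT-2 cells of their library were left out in an alternative.

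Melanoma, macrophage and neutrophil genes were high in AT-2 and endothelial cells of the same libraries, while club and lymphocyte genes were not alike in the 2 cell types. The summed level of 9 melanoma genes was 310.2 to 473 CPM in lung AT-2 cells, most of it from Cd63, a lysosomal tetraspanin that many cells express, and 1023, 8398 and 2103 CPM in metastasis AT-2 cells. In endothelial cells it was 13.2 to 60.8 CPM in lung and 657, 8883 and 1913 CPM in the same metastasis libraries. Macrophage genes summed to 28.9, 0, 81.9 and 3155 CPM in lung AT-2 cells and to 15.5 to 114 CPM in metastasis, with 2022 CPM in the endothelial cells of lung replicate 6. Neutrophil genes summed to 9.65, 0, 164 and 5093 CPM in lung and to 36.1 to 473 CPM in metastasis, with 2520 CPM in the endothelial cells of lung replicate 6. Club genes summed to 60469, 68097, 7985 and 7860 CPM in lung AT-2 cells and to 1847, 17043 and 168840 CPM in metastasis AT-2 cells, highest in metastasis replicate 6. Endothelial cells held at most 278 CPM in lung replicates 1 and 4 and 4847 and 3636 CPM in lung replicates 5 and 6. In metastasis they held 538, 4684 and 4268 CPM. Lymphocyte genes, Igkc among them, summed to 5431 CPM in the AT-2 cells of lung replicate 6 and to 568.1 CPM in its endothelial cells. Epithelial transcripts were common in endothelial cells of run 3: a UMI of Scgb1a1 was found in 99.9% of endothelial cells of lung replicate 5 and in 100% of those of metastasis replicate 5, and a UMI of Sftpc in 66.7% and 71.2%. Endothelial genes summed to at most 748 CPM in AT-2 cells, against 7054 to 13902 CPM in endothelial cells. Fibroblast genes summed to 0, 35.0, 50.7 and 229.5 CPM in lung and to 0, 467 and 526 CPM in metastasis, where most of it was Mgp, and ciliated genes to 0 to 419 CPM. The part of these transcripts in the results below was not tested unless a value is given.

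**Figure D3:**
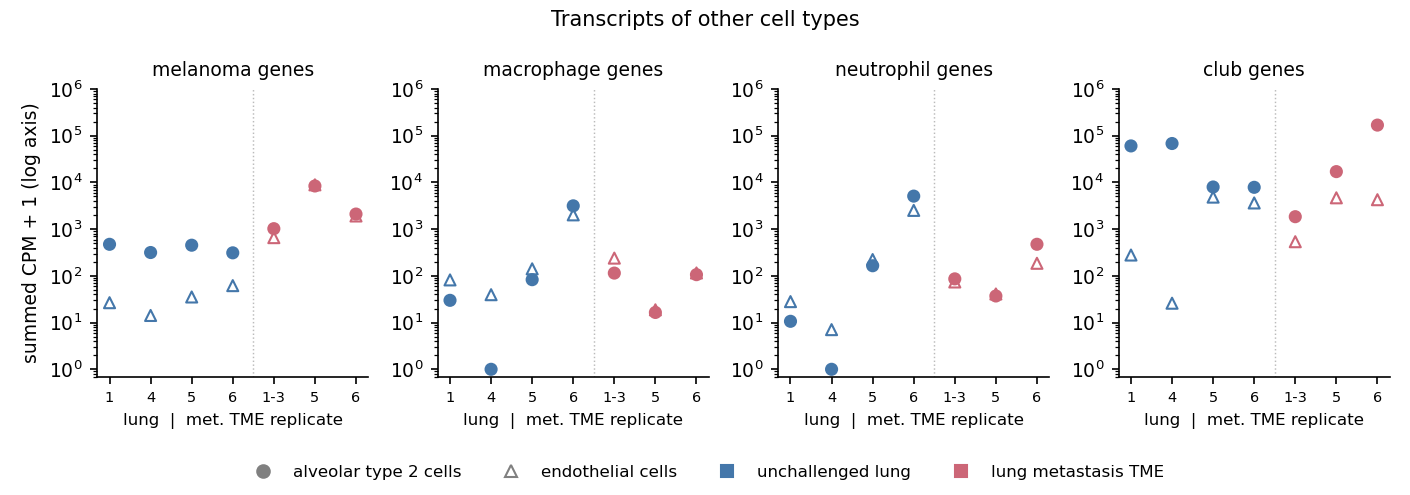
Summed level (CPM + 1, log axis) of melanoma, macrophage, neutrophil and club cell genes in alveolar type 2 cells (filled circles) and endothelial cells (open triangles) of each lung (blue) and metastasis TME (red) library. Melanoma genes are high in both cell types of the metastasis libraries (8398 and 8883 CPM in replicate 5), and macrophage genes are high in both cell types of lung replicate 6 (3155 and 2022 CPM).

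Lung metastasis TME was compared with unchallenged lung to ask how AT-2 cells beside a metastasis differ from those of a healthy lung. The melanoma gene Dct was higher in metastasis AT-2 cells and in endothelial cells beside them, and no AT-2 gene outside those that chose the cells passed the test. Lcn2 (lipocalin 2), Atp5g1 (an ATP synthase subunit), Mif and the glycolytic enzyme Tpi1 had higher values in every metastasis library than in any lung library without passing the test. The planned minimum of 10 cells per library left 1 metastasis library and no test. A fit over all 7 libraries with at least 4 AT-2 cells was therefore added after the cell numbers had been seen. In this fit (edgeR quasi-likelihood test with Benjamini-Hochberg adjustment) 1 of 1285 genes tested was called higher in metastasis (0.0778%) and 0 lower. At an unadjusted p under 0.05, 73 genes (5.68%) were higher and 49 (3.81%) lower, and the median log2 fold change of all genes was -0.05. Without overlap between the groups, 68 genes (5.29%) were higher and 37 (2.88%) lower. DESeq2 called 3 genes, Dct, Atp5g1 and Lcn2. In simulated data of this size the fit recovered 72 of 91 genes changed 4-fold (log2 of 2) and 11 of 90 genes changed 2-fold (log2 of 1), with 4 false calls. Differences of 2-fold were thus mostly not detectable. The simulation changed a larger share of its 1149 tested genes than the real fit called, which eases the adjusted threshold. Recovery in the real data can therefore be lower, also for 4-fold changes. The deposited library names give a mouse for each library, but identical libraries carry different mouse names, so p-values are taken to measure the spread between these samples and no more. With the run as a term of the fit, added after the data were seen, 42 of 3074 genes were called, 16 higher and 26 lower in metastasis. Dct, Atp5g1 (log2 fold change 2.27, edgeR adjusted p = 0.028) and Lgals1 (4.15, 0.0015) were among the former, and Lcn2 was not called (edgeR adjusted p = 0.079). The calls also held leukocyte genes such as Chil3, Csf3r and Igkc, from the macrophage, neutrophil and lymphocyte lists whose sums were highest in lung replicate 6. In run 2 only lung replicate 4 held AT-2 cells, so that library did not inform the tissue difference of this fit.

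The called gene was Dct, the melanin synthesis enzyme dopachrome tautomerase, on the minus strand of chromosome 14 from 118012790 to 118052244. It was 0 CPM in all 4 lung libraries and 114, 5003 and 999 CPM in metastasis AT-2 cells. Against a floor of 3 counts over the pooled lung cells it was at least 1053-fold higher, and at least 101-fold higher without metastasis replicate 5, which held nearly all of its counts (log2 fold change 11.45 ± 1.38, SE, edgeR adjusted p = 0.0006). Endothelial cells of the same libraries held 0.36 to 2.10 CPM in lung and 365, 5719 and 1069 CPM in metastasis, and the difference between the cell types was not called (interaction adjusted p = 1). In metastasis replicate 5 all 108 AT-2 cells and 100% of endothelial cells held a Dct UMI (96.3% and 97.1% after thinning), at median depths of 2968 and 2080 UMIs. Whether AT-2 cells transcribe Dct was not tested. Without metastasis replicate 5, lung replicate 5 or lung replicate 6, and after thinning, the low-count filter left Dct out, so those fits do not test it. Among cells with at least 5% surfactant UMIs its log2 fold change was 11.11 (edgeR adjusted p = 0.0028). In metastasis replicate 5 Dct was 2968 CPM in the 73 cells above that limit and 11189 CPM in the 35 below it.

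Lcn2 encodes lipocalin 2, an iron-chelating antibacterial protein of epithelia and neutrophils, on chromosome 2 from 32384633 to 32388252. It was 367, 665, 312 and 465 CPM in lung and 2330, 1725 and 684 CPM in metastasis, so that every metastasis library lay above every lung library, replicate 6 only just. The log2 fold change was 1.82 ± 0.40 (SE) with an edgeR adjusted p of 0.074. Endothelial cells held 0.18 to 29.4 CPM in lung and 0 to 47.6 CPM in metastasis. Their log2 fold change was of like size but more variable, at 1.86 ± 1.43 (SE, edgeR adjusted p = 0.54). Within run 1 the values were 367 against 2330 CPM, and within run 3 they were 312 and 465 against 1725 and 684 CPM. Among cells with at least 5% surfactant UMIs, chosen after the data were seen, Lcn2 was called (log2 fold change 2.14, edgeR adjusted p = 0.0087). That limit left metastasis replicate 6 with 1 cell and lung replicate 4 with 2, and both were out of the fit. With those libraries left out and all cells kept, Lcn2 was called too (log2 fold change 2.27, edgeR adjusted p = 0.040), and in metastasis replicate 5 those cells held 2173 CPM of it against 365 CPM in the low-surfactant cells. Lcn2 was also called by DESeq2 (adjusted p = 0.045), without metastasis replicate 6, with at least 5 of the 7 genes, and among cells with more Sftpc than Scgb1a1, where the same 2 libraries fell out. In all it was called in 6 of 19 alternatives. Within run 3 the log2 fold change was 1.76 (edgeR adjusted p = 0.41), and with the replicate block 1.54 (0.998). It was not called without metastasis replicate 5 (1.68, 0.47), lung replicate 5 (1.55, 0.39) or metastasis replicate 1-3 (1.53, 0.24, edgeR).

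The next 3 genes were, like Lcn2, those of lowest p with higher values in metastasis, among genes that averaged 20 CPM or more. Atp5g1, a subunit of the mitochondrial ATP synthase, was 96.5, 105, 74.1 and 49.6 CPM in lung and 341, 526 and 210.3 CPM in metastasis, without overlap (log2 fold change 2.32 ± 0.47, edgeR adjusted p = 0.056). It was called in 9 of 19 alternatives, with an adjusted p from 0.0087 (edgeR, cells with at least 5% surfactant UMIs, log2 fold change 2.44) to 0.82 (without metastasis replicate 5, 1.80). Mif, macrophage migration inhibitory factor, was 105 to 140.4 CPM in lung and 284, 774 and 263 CPM in metastasis, also without overlap (1.91 ± 0.45, edgeR adjusted p = 0.105). It was called in 2 of 19 alternatives, among cells with at least 5% surfactant UMIs (1.89, edgeR adjusted p = 0.029) and without metastasis replicate 1-3 (2.19, 0.030), while without metastasis replicate 5 its log2 fold change was 1.04 (edgeR adjusted p = 0.998). Lgals1, the galactose-binding lectin galectin 1, was 0, 70.0, 11.7 and 109 CPM in lung and 56.8, 1529 and 526 CPM in metastasis, and the groups overlapped (3.94 ± 0.82, edgeR adjusted p = 0.056). It was called in 8 of the 15 alternatives that tested it, with log2 fold changes of 2.98 to 4.54 over all 15, and the low-count filter kept it out of the fit without metastasis replicate 5 and of that at 5% surfactant UMIs. Mif and Lgals1 were called in endothelial cells of the same libraries (log2 fold changes 3.06 and 5.46), where they reached 831 and 1966 CPM in metastasis replicate 5. The interaction test called none of the 4 genes (edgeR adjusted p = 1 for each).

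The genes with lower values in metastasis had larger p-values. Gstm1, a glutathione transferase, was 279.8, 490.2, 133 and 233 CPM in lung and 0, 74.8 and 105 CPM in metastasis. Sod1, the cytosolic superoxide dismutase, was 289, 315, 398 and 394 CPM and then 85.3, 178 and 0 CPM. Slc43a2, an amino acid transporter, ranged from 106 to 156 CPM and from 0 to 54.2 CPM, and Pon1, a paraoxonase, from 49.6 to 164 CPM and from 0 to 28.4 CPM. These 4, named for their low p, did not overlap between the groups, as was so for 37 of all 1285 genes in this direction (2.88%). They had log2 fold changes of -2.09 ± 0.64, -1.58 ± 0.51, -1.59 ± 0.51 and -2.16 ± 0.71 and an edgeR adjusted p of 0.305 for each. None was called in any alternative that tested it. Sod1 ranged from -2.86 (without metastasis replicate 5) to -0.70 (no exclusion with a minimum of 10 cells), Gstm1 from -2.79 (without metastasis replicate 5) to -0.93 (replicate block, and -1.08 within replicates 5 and 6), Slc43a2 from -1.80 to -0.45 and Pon1 from -2.70 to -1.61. Zfp36, an immediate early RNA-binding protein, overlapped (70.0 to 506 CPM in lung, 0 to 114 CPM in metastasis), and its highest value came from lung replicate 6 (log2 fold change -2.89, edgeR adjusted p = 0.31, called in 3 of 16 alternatives). A value of 0 in metastasis replicate 6 allows up to 3 counts, which is worth more there than in any other library.

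**Figure D4:**
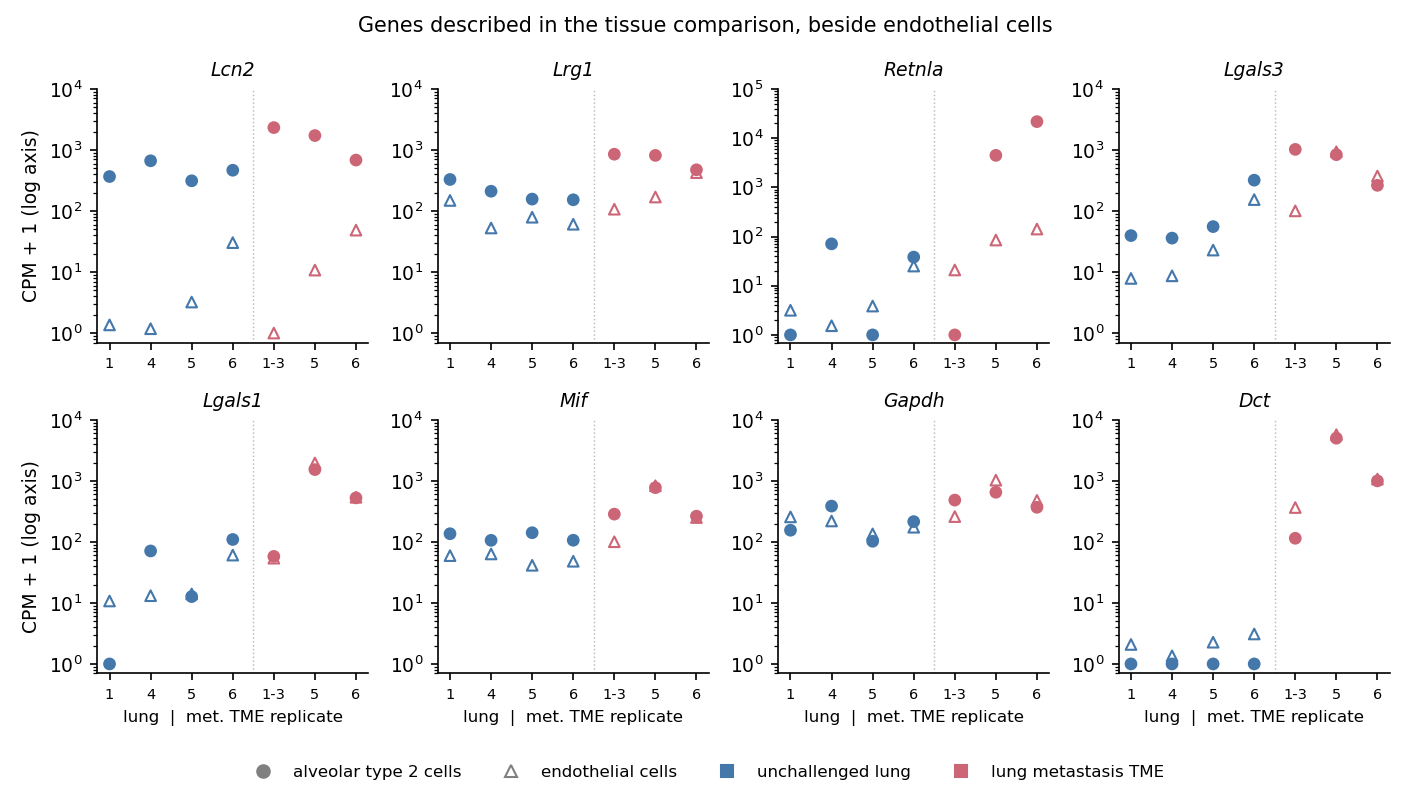
Level (CPM + 1, log axis) of 8 genes in alveolar type 2 cells (filled circles) and endothelial cells (open triangles) of each lung (blue) and metastasis TME (red) library. Lcn2 is 684 CPM or higher in metastasis alveolar type 2 cells and at most 47.6 CPM in endothelial cells, while Dct and Lgals1 lie at like levels in both cell types of metastasis replicates 5 and 6.

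Inflammatory and acute phase genes gave 0 calls among 7 tested (0.0778% of all genes called higher), with a median log2 fold change of 0.58 beside -0.05 over all genes. In endothelial cells the median of the list was higher, at 0.93 over 17 tested. The AT-2 median was 1.00 over 4 tested without lung replicate 6. It was 0.43 over 9 tested at 5% surfactant UMIs and 0.50 over 10 among cells with more Sftpc than Scgb1a1. The summed level of the list was 3167 to 4206 CPM in lung AT-2 cells and 6394 to 27868 CPM in metastasis AT-2 cells, without overlap, and 757 to 1076 CPM and 863 to 1444 CPM in endothelial cells. Chil1, a chitinase-like protein, was 1621, 1015, 1661 and 1172 CPM in lung and 2188, 2264 and 2051 CPM in metastasis, without overlap (log2 fold change 0.62 ± 0.35, edgeR adjusted p = 0.58). Hp, the hemoglobin-binding haptoglobin, overlapped, at 295 to 1187 CPM and 483 to 2051 CPM. Lrg1, a secreted acute phase glycoprotein named after its values had been seen, was 328, 210.1, 156 and 152 CPM in lung and 853, 815 and 473 CPM in metastasis (1.75 ± 0.42, edgeR adjusted p = 0.105). In endothelial cells it reached 425 CPM and had a log2 fold change of 1.53 (edgeR adjusted p = 0.16). Among cells with at least 5% surfactant UMIs Lrg1 was called (log2 fold change 1.83, edgeR adjusted p = 0.034), and with all cells of those 5 libraries it was not (1.84, edgeR adjusted p = 0.26).

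Retnla was the largest member of the inflammatory sum in metastasis replicate 6, with 21716 of 27868 CPM, and gave 4475 of 10982 CPM in replicate 5. It encodes the secreted protein resistin-like alpha, a marker of type 2 immunity, and lies on chromosome 16 from 48842551 to 48844461. It was 0, 70.0, 0 and 37.2 CPM in lung AT-2 cells and 0, 4475 and 21716 CPM in metastasis AT-2 cells, against 0.54 to 24.1 CPM and 19.9, 83.9 and 141 CPM in endothelial cells. The groups overlapped, because none of the 5 cells of metastasis replicate 1-3 held a UMI. After thinning to 1000 UMIs, 32.7% of AT-2 cells of metastasis replicate 5 and 80.0% of those of replicate 6 held a Retnla UMI, against 9.95% and 15.9% of endothelial cells, and without thinning the shares were 47.2% and 80.0% against 20.2% and 40.6%. At this depth both AT-2 shares were above those of endothelial cells, though replicate 6 has 5 AT-2 cells.

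Retnla was spread unevenly over the cells. In metastasis replicate 5 it was found in 46 of the 96 cells with at least as much Sftpc as Scgb1a1 and in 5 of the 12 with more Scgb1a1, at 4355 and 5318 CPM, and 1 cell held 531 UMIs of it. It was 5004 CPM in the 73 high-surfactant cells of that library and 2865 CPM in the 35 low ones. In metastasis replicate 6 most of its UMIs lay in the 3 cells with more Scgb1a1 (399 UMIs), and the other 2 cells held 14. The low-count filter kept Retnla out of the 7-library fit. The test of the difference between cell types called it, with a log2 fold change 4.83 ± 1.01 (SE) larger in AT-2 than in endothelial cells (edgeR interaction test, adjusted p = 0.0017). Of 7452 genes tested it was the 1 called larger in AT-2 cells (0.0134%). The p-values of this test match a normal distribution of the difference over its SE. They thus rest on a spread shared over genes, and the uneven levels of Retnla between metastasis libraries did not set its p-value. The call was lost without metastasis replicate 5 (log2 difference 4.56, adjusted p = 0.58), lung replicate 5 (4.20, 0.18) or lung replicate 6 (4.19, 0.12, edgeR). Without metastasis replicate 6 it was called in AT-2 cells (log2 fold change 6.89, edgeR adjusted p = 0.022). Within run 3 alone it was called as well (log2 fold change 9.22, edgeR adjusted p = 1.5e-08), and within run 1 it was at 0 in both libraries.

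The summed level of hypoxia and glycolysis genes was higher in every metastasis library than in any lung library, in both cell types, though single genes overlapped. Of the 6 tested in AT-2 cells, 0 were called, all 6 had a positive log2 fold change, and their median was 1.34 beside -0.05 over all genes and 1.69 for the list in endothelial cells. Without metastasis replicate 5 the median was 0.89 over 5 tested. Tpi1, triosephosphate isomerase, was 35.0 to 145 CPM in lung and 284, 371 and 421 CPM in metastasis, without overlap (log2 fold change 1.89 ± 0.48, edgeR adjusted p = 0.105). Gapdh, the glycolytic dehydrogenase, was at most 385 CPM in lung (replicate 4) and at most 214 CPM in the other 3, and then 483, 649.9 and 368 CPM in metastasis, which overlapped through lung replicate 4 (1.40 ± 0.45, edgeR adjusted p = 0.31). Ldha, which makes lactate, was 152 to 210.1 CPM in lung and 483, 479.7 and 210.3 CPM in metastasis. In endothelial cells Gapdh reached 1026 CPM and Ldha 606 CPM in metastasis replicate 5, above the AT-2 values of that library. The list's summed level was 998 to 1535 CPM in lung and 2366 to 3433 CPM in metastasis AT-2 cells. In endothelial cells 3 of the 18 tested were called higher, beside 0.977% of all genes tested there.

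Genes of the transitional state between AT-2 and AT-1 cells had a median log2 fold change of 1.07 over 10 tested, 0 of them called, beside 0.33 in endothelial cells. Without lung replicate 6 the median was 0.68 over 6 tested. Lgals3, the lectin galectin 3, was 38.6, 35.0, 54.6 and 319 CPM in lung and 1023, 838 and 263 CPM in metastasis (2.44 ± 0.60, edgeR adjusted p = 0.105), and the groups overlapped through lung replicate 6. S100a6, a calcium-binding protein, was 57.9, 70.0, 105 and 617 CPM and then 995, 544 and 473 CPM, with the same overlap. Without lung replicate 6 these were the 2 genes called (Lgals3 log2 fold change 3.78, edgeR adjusted p = 0.0018), while the low-count filter kept Dct out of that fit. Both genes were high in endothelial cells of metastasis replicate 5 (935 and 977 CPM), and Lgals3 was higher in the low-surfactant cells of that library (1448 CPM) than in the others (638 CPM). Krt8, the keratin that marks the transitional state, was 125, 35.0, 207 and 177 CPM in lung and 426, 191 and 210.3 CPM in metastasis, which overlapped. Nupr1, a stress-induced nuclear protein, was 158 to 646 CPM in lung and 52.6 to 369 CPM in metastasis (log2 fold change -0.89).

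The genes of surfactant handling that played no part in the choice gave no call. Slc34a2 and Lamp3 chose the cells, and of the other 9 lamellar body and surfactant handling genes tested 0 were called, with a median log2 fold change of -0.36 (-0.67 in endothelial cells). The median was -0.14 among cells with at least 5% surfactant UMIs and -0.01 among cells with more Sftpc than Scgb1a1. Npc2, a cholesterol carrier of lysosomes and lamellar bodies, was 3020, 4026, 2967 and 1777 CPM in lung and 6763, 5855 and 3470 CPM in metastasis, overlapping at lung replicate 4 (0.83 ± 0.39, edgeR adjusted p = 0.52). Lyz2 was 18928, 16035, 15814 and 10453 CPM and then 16397, 14850 and 6257 CPM. Lyz1, the intestinal-type lysozyme, was 0 and 70.0 CPM in lung replicates 1 and 4 but 1762 and 1535 CPM in lung replicates 5 and 6, and 0, 436 and 0 CPM in metastasis, so that it varied more among lung libraries than between the groups.

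Lipid synthesis, the supply line of surfactant phospholipid, gave 0 calls among 14 fatty acid and phospholipid genes (median log2 fold change -0.29) and 0 among 6 cholesterol genes (median -0.27). Without lung replicate 6 the medians were -0.46 and -0.55, and without metastasis replicate 5 the cholesterol median was -0.79. Among cells with at least 5% surfactant UMIs they were -0.62 over 17 tested and -0.10 over 10, and among cells with more Sftpc than Scgb1a1 -0.57 and -0.01. Scd1, the stearoyl-CoA desaturase, was 4418, 1891, 3033 and 1210 CPM in lung and 1904, 1560 and 789 CPM in metastasis, with overlap (-0.97 ± 0.46, edgeR adjusted p = 0.52). Cd36, a fatty acid transporter, was 473 to 791 CPM and 250.2 to 483 CPM. Fabp5, a fatty acid binding protein, was 482, 595, 788 and 267 CPM in lung and 199, 1091 and 368 CPM in metastasis (0.16 ± 0.49). Among cholesterol genes Hmgcs1, the synthase at the start of the pathway, had a log2 fold change of 0.02 ± 0.47.

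Transcription factors and growth signals of AT-2 cells had a median log2 fold change of -0.55 over 9 tested, with 0 called, and of -0.97 over 7 tested without lung replicate 6 and -0.32 over 11 tested at 5% surfactant UMIs. Nkx2-1 was 405, 140.0, 675 and 403 CPM in lung and 199, 209 and 421 CPM in metastasis, and Etv5 was 236 to 315 CPM and 158 to 256 CPM, both with overlap. Muc1, a membrane mucin on the same list, went the other way, at 453, 385, 398 and 242 CPM in lung and 654, 639.6 and 684 CPM in metastasis, without overlap (0.79 ± 0.38, edgeR adjusted p = 0.52). Ank3, a membrane scaffold, was 347 to 530.3 CPM and 171, 186 and 421 CPM.

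The AT-1 gene Ager was found in the AT-2 cells of both tissues. The summed AT-1 list was not higher in them than in endothelial cells in most libraries. Ager reached at most 8.90 CPM in endothelial cells, so their sums came mostly from other genes of the lists. The sums thus do not compare AT-1 identity between the 2 cell types. The list summed to 1611 to 2499 CPM in lung AT-2 cells and to 1733, 2362 and 1157 CPM in metastasis, and to 3147 to 4117 CPM in lung and 2601, 1423 and 1873 CPM in metastasis endothelial cells, so that only metastasis replicate 5 had more in its AT-2 cells. A shorter list of 5 AT-1 genes, Ager among them, summed to 422 to 907 CPM in lung and 483 to 898 CPM in metastasis AT-2 cells. In endothelial cells, with metastasis replicate 4 included, it summed to 349 to 523 CPM and 102 to 473 CPM. Of the 16 on the longer list 4 were tested, 0 called, with a median log2 fold change of -0.17 (-0.38 without lung replicate 6, -0.58 without metastasis replicate 5, -0.27 at 5% surfactant UMIs). Ager, the receptor that marks AT-1 cells, was 820.0, 455, 807 and 335 CPM in lung and 483, 889.8 and 473 CPM in metastasis, against 1.78 to 8.90 CPM in endothelial cells. It was not confined to low-surfactant cells, since in metastasis replicate 5 it was 1087 CPM in the high cells and 292 CPM in the low ones. Pdpn and Akap5, AT-1 genes too, reached at most 3.90 and 9.65 CPM. After thinning, a UMI of Ager, Rtkn2 or Akap5 was found in 49.1% and 20.7% of the cells of lung replicates 5 and 6 and in 43.0% of those of metastasis replicate 5, against 0% to 1.32% of endothelial cells in any library. Without thinning the 3 shares were 86.8%, 29.2% and 64.8%, against 1.24% to 4.69% of endothelial cells. Thinning left out 28 cells of lung replicate 6 and 1 of metastasis replicate 5 with under 1000 UMIs.

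**Figure D5:**
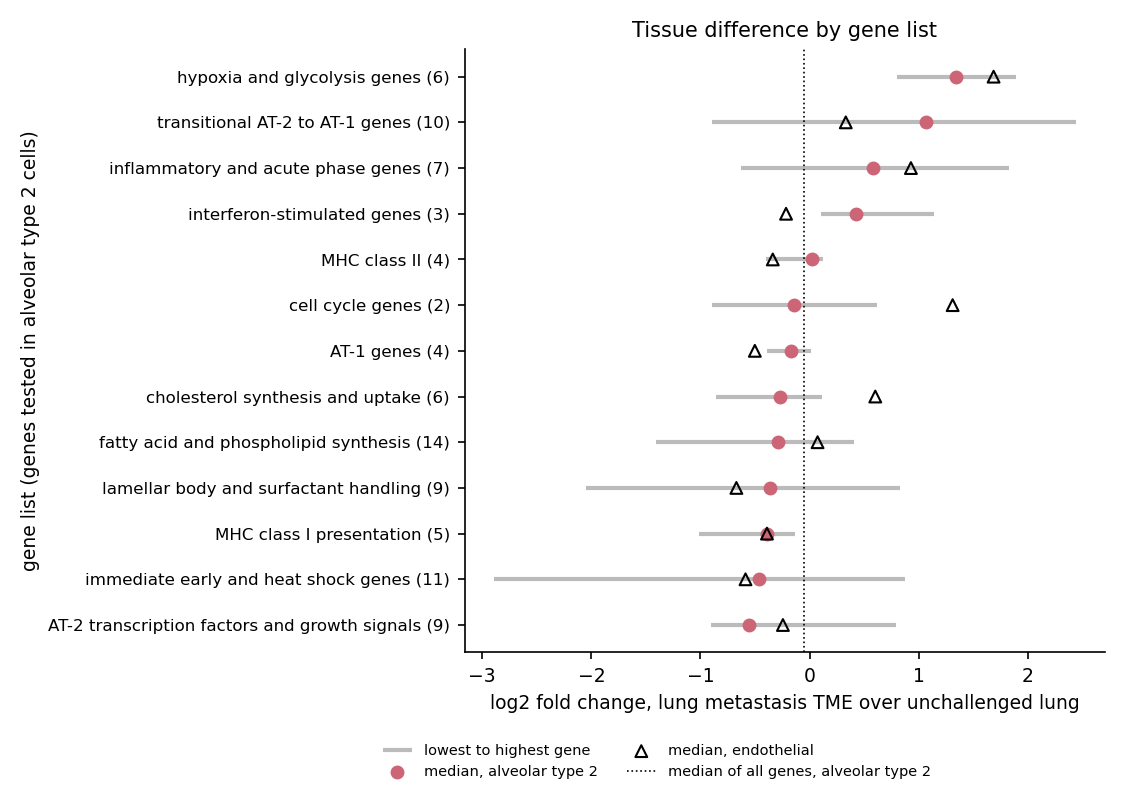
Median (red circle) and range (gray bar) of the log2 fold change, metastasis TME over unchallenged lung, of each gene list in alveolar type 2 cells, with the median of the list in endothelial cells (triangle) and of all genes in alveolar type 2 cells (dotted line, -0.05). Genes tested stand in brackets, the genes that chose the cells and lists of other cell types are left out, no gene of the lists shown was called, and their medians run from -0.55 to 1.34.

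The remaining lists gave 0 calls. Antigen presentation by MHC class II, which AT-2 cells carry without being leukocytes, gave 0 calls among 4 tested and a median log2 fold change of 0.02 (-0.28 without metastasis replicate 5, 0.27 at 5% surfactant UMIs). Cd74, the invariant chain, was 2981, 1786, 2542 and 2109 CPM in lung and 3694, 3002 and 1367 CPM in metastasis. MHC class I genes (5 tested, 0 called) had a median of -0.39, as in endothelial cells, of -0.64 without metastasis replicate 5 and of -0.22 among cells with more Sftpc than Scgb1a1, and B2m was 292 to 1151 CPM and 114 to 421 CPM with overlap. Interferon-stimulated genes (3 tested, 0 called) had a median of 0.43, with Ifi27 at 1.14, and the median turned to -0.47 without metastasis replicate 5 and to -0.21 among cells with more Sftpc than Scgb1a1, but was 1.41 over 3 tested at 5% surfactant UMIs. Immediate early and heat shock genes (11 tested, 0 called) had a median of -0.47 that was 0.03 without lung replicate 6, -0.03 without metastasis replicate 5, -0.30 at 5% surfactant UMIs and -0.77 among cells with more Sftpc than Scgb1a1, and Jund, Hspa8 and Hsp90aa1 each lay within -0.25 to -0.09. Club cell genes (5 tested, 0 called) had a median of -1.22 (-1.83 over 4 tested among cells with more Sftpc than Scgb1a1), with Cyp2f2 at -1.73. Scgb1a1, the club gene with the highest mean CPM, went the other way at 0.99 ± 1.06 (SE).

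Cell cycle genes were rare. Of 22 genes 2 were tested and 0 called, and a UMI of Mki67 or Top2a, both expressed in dividing cells, was found after thinning in 6 of 164 cells of lung replicate 6 (3.66%), in 4 of 107 cells of metastasis replicate 5 (3.74%) and in 0 cells of the other 5 libraries. In endothelial cells of the same 2 libraries the shares were 1.42% and 8.42%. Without thinning they were 3.65% and 8.33% in AT-2 cells and 2.13% and 13.3% in endothelial cells. The 0 of 53 cells of lung replicate 5 allows up to 5.66%, so the shares could not be told apart at this depth.

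Per-cell measures overlapped between the tissues. The median depth of an AT-2 cell was 8491, 8277, 4814 and 1343.5 UMIs in lung and 6439, 2968 and 3204 UMIs in metastasis, with 811 to 2208 genes and 873 to 2127 genes per cell. The mitochondrial share was 8.58%, 2.08%, 9.10% and 7.77% in lung and 2.01%, 6.75% and 6.75% in metastasis. The group means ± SD were 5731 ± 3376 UMIs (n = 4) and 4204 ± 1939 UMIs (n = 3). Exact two-sided permutation tests of 5 such measures (depth, genes, mitochondrial share, and the thinned shares with cycling and with AT-1 genes) gave p from 0.343 to 0.857 and adjusted p of 0.857 for each, and with 3 against 4 libraries no p under 0.057 was possible.

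The library with 108 cells was also set beside the 3 lung libraries with at least 10 cells, with no test because the metastasis side is 1 library. Of 5723 genes with a mean of at least 20 CPM, 221 (3.86%) were at least 2-fold higher in it than in each lung library and 205 (3.58%) at least 2-fold lower than in each. Glycolysis genes had 7 of 15 higher (Pgk1, Ldha, Eno1, Pkm, Aldoa, Gapdh and Tpi1) and 1 lower (P4ha1), inflammatory genes 4 of 13 higher (Lcn2, Cxcl17, Lrg1 and Retnla) and transitional genes 4 of 17 higher (Krt7, Lgals3, Tm4sf1 and Clu). All 8 melanoma genes measured were higher. Lower genes included 3 of 6 club genes (Scgb3a2, Cyp2f2 and Aldh1a1), the epithelial factor Elf5, and Hopx, an AT-1 gene, at 2.58 CPM against 77.2, 19.5 and 71.3 CPM. No fatty acid or MHC class II gene was 2-fold higher or lower, and of the lamellar body genes Ctsh, a lysosomal protease, was higher (836 CPM against 415, 409 and 304 CPM). The balance of the counts changed with the cells and libraries used: 263 genes were higher and 658 lower among cells with at least 5% surfactant UMIs, 394 and 688 without lung replicate 1, and 38 and 10 after thinning. The differences of that single library have no replicate check.

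Endothelial cells of the same 7 libraries gave 107 genes higher in metastasis (0.977% of 10956 tested) and 12 lower (0.11%), while DESeq2 called 310 higher and 122 lower and the replicate block over replicates 5 and 6 729 higher and 545 lower. The test of whether the tissue difference differed between AT-2 and endothelial cells called 17 of 7452 genes, 1 with a higher log2 fold change in AT-2 cells (Retnla) and 16 with a lower one (0.215%). In 12 of the 16 the endothelial log2 fold change was positive, and in 15 of the 16 the lung level was higher in AT-2 cells. Fabp5 was 482, 595, 788 and 267 CPM in lung AT-2 cells and 17.0, 9.46, 12.7 and 33.5 CPM in lung endothelial cells, while in metastasis it was 199, 1091 and 368 CPM against 39.8, 887 and 208 CPM (difference -4.23 ± 0.70, adjusted p = 4.8e-06 by the edgeR interaction test). Syngr1, a vesicle protein, was 11.7 to 35.0 CPM in lung and 56.8, 402 and 52.6 CPM in metastasis AT-2 cells, and 0 to 0.64 CPM and then 26.5, 380.0 and 55.3 CPM in endothelial cells (-5.62 ± 1.14, adjusted p = 0.0011 by the same test). In metastasis replicate 5 both genes thus stood at like levels in the 2 cell types.

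Enpep, Nectin2 and Rtkn also had a lower log2 fold change in AT-2 cells than in endothelial cells. Without metastasis replicate 5 Fabp5 kept its call, and Syngr1, Enpep, Nectin2 and Rtkn lost theirs (edgeR adjusted p from 0.51 to 0.75) at log2 differences of -5.73, -5.12, -4.81 and -12.67, each larger in size than with all libraries. Without lung replicate 5 Enpep (0.086) and Rtkn (0.24) were not called, and without lung replicate 1 Syngr1 (0.055) and Rtkn (0.17) were not. Enpep, an aminopeptidase, was 183, 210.1, 133 and 112 CPM in lung and 56.8, 87.7 and 52.6 CPM in metastasis AT-2 cells, without overlap, with 0.36 to 1.45 CPM and 3.81 to 13.3 CPM in endothelial cells (-3.80 ± 0.85, adjusted p = 0.0051 by the edgeR interaction test). Its AT-2 difference alone was not called (edgeR adjusted p = 0.52). Nectin2, an adhesion protein, was 46.5 to 175 CPM in lung and 0 to 72.2 CPM in metastasis AT-2 cells and rose in endothelial cells (log2 fold change 3.18, edgeR adjusted p = 0.027). Without metastasis replicate 6 or lung replicate 6 Rtkn was not called (0.20 and 0.052, edgeR). Rtkn was 43.4 to 89.7 CPM and 0, 67.1 and 0 CPM in AT-2 cells, with at most 15.2 CPM in endothelial cells. Mapt, Hspa1b, Grk3 and Sorl1 had the next lowest p with a higher log2 fold change in AT-2 cells and were not called (interaction adjusted p 0.054 to 0.157, edgeR).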

How the data were processed

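The members and the 24 gene lists were chosen with earlier results of these data known. The authors aligned 10x Genomics reads to GRCm38 with Cell Ranger 6.1.1, filtered cells with Seurat 3.2.2 by quantiles of detected genes and of mitochondrial and ribosomal share, and deposited UMI counts for 32285 genes. The deposited mitochondrial percent per cell was used as given. A second deposited matrix, of normalized values, was not used. Of 24 deposited library names 2 matched no sample, and both hold the values of a library that was kept, so that 16 libraries remained. The largest number of barcodes shared by any pair of the libraries compared was 48, and no AT-2 cells shared a barcode.

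Counts of AT-2 cells were summed per library and tested in R 4.3.3 with edgeR 4.0.16 (filterByExpr, TMM scaling, quasi-likelihood F test, Benjamini-Hochberg over all genes tested, called at an adjusted p below 0.05), and the interaction test took the library as block. DESeq2 1.42.0, upper quartile scaling, no filter, a replicate block, leave-one-out, stricter markers, no exclusion, doublets left out, thinning and replicates 5 and 6 only were alternatives. The planned minimum of 20 or 10 cells left 1 metastasis library, so the fit over libraries with at least 4 cells, and the limits of 5% surfactant UMIs and of more Sftpc than Scgb1a1, the run as a term and leaving out lung replicate 4 with metastasis replicate 6, were added after the data were seen. CPM are counts per 1000000 UMIs of the summed cells. Named genes were the 11 of the rule, up to 4 per list (called, otherwise highest mean CPM), and called genes without overlap, filled to 5 per direction by lowest p with a mean of at least 20 CPM. Gene positions come from GENCODE for GRCm38. The SE of edgeR values was taken from the fold change and its F statistic. The AT-2 and endothelial fits were tested on simulated data, and the interaction test, whose p-values rest on a spread shared over genes, was not. Depth was 2750267 to 53506609 UMIs per library. Whether replicate numbers pair samples was checked: deviations of replicates 5 and 6 correlated at 0.051 in AT-2 and -0.067 in endothelial cells.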

Additional observations from a re-analysis of the deposited data

Results flagged for a closer look

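Lung replicate 6 was marked by a gap test against the other 3 lung libraries in 5 measures of its AT-2 cells: 3.66% of thinned cells held a UMI of Mki67 or Top2a where the other 3 libraries held 0% (of 12, 4 and 53 cells, so that this difference could not be told apart from counting error), Zfp36 was 506 CPM (others 70.0 to 105 CPM), and the summed lymphocyte, macrophage and neutrophil genes were 5431, 3155 and 5093 CPM (others at most 58.5, 81.9 and 164 CPM). The test was run on 29 measures, and chance alone marks about 1 group in 20. Endothelial cells of lung replicate 6 held 568.1, 2022 and 2520 CPM of the same 3 lists. The part of this library's depth, the lowest per AT-2 cell of the 7 libraries, was not tested.

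The tissue difference itself differed between AT-2 and endothelial cells, by the edgeR interaction test, for Retnla (log2 difference 4.83, larger in AT-2 cells) and for Syngr1 (-5.62), Fabp5 (-4.23), Enpep (-3.80), Nectin2 (-3.78) and Rtkn (-3.59). The levels behind them are given above.

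Cells that met the AT-2 rule also appeared in samples sorted as tdTomato- MM cells, which the comparison did not use: 3 of 638 cells of metastasis MM replicate 4, 1 of 11310 of metastasis MM replicate 5 and 1 of 6481 of primary tumor MM replicate 5. Primary tumor TME held 0 of 6477.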

How the results depend on the processing

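The AT-2 fit over 7 libraries called 1 gene. It called 3 with DESeq2, 112 without a filter on low counts, 14 with a replicate block over replicates 5 and 6, 47 with replicates 5 and 6 alone and no block, 9 with at least 5 of 7 markers (a limit that also dropped lung replicate 4, without which the fit over all cells called 5), 18 among cells with at least 5% surfactant UMIs, 7 among cells with more Sftpc than Scgb1a1, 42 with the run as a term, 4 with lung replicate 4 and metastasis replicate 6 left out together and 0 after thinning, where 118 genes could be tested. Leaving out 1 library at a time gave 0 (without metastasis replicate 5, or lung replicate 5) to 24 (without metastasis replicate 1-3). Upper quartile scaling, removal of possible doublets, and no exclusion by the 4 genes of other cells together with a minimum of 10 cells, called 1 gene each, Dct, and upper quartile scaling moved the median of all genes from -0.05 to -0.15. Replicates 5 and 6 of both groups lie in run 3, and within it the numbers do not pair the samples, which says nothing of the runs. Of 170 values of the 10 named genes under alternatives, 142 kept their direction and side of the threshold, 28 were newly called and 0 reversed. With at least 10 cells the fold description listed 426 genes, with at least 20 cells 1082, after thinning 48, among cells with at least 5% surfactant UMIs 921, and without 1 lung library 613 to 1082.

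Endothelial calls numbered 119, and 432 with DESeq2, 1274 with the replicate block and 13 (without metastasis replicate 5) to 454 (without replicate 1-3) with a library left out. Interaction calls numbered 17, and 27 with upper quartile scaling and 2 (without metastasis replicate 5) to 36 (without lung replicate 6) with a library left out. The share with cycling genes differed by 0.331 percentage points, and by -0.915 to 1.25 with a library left out. The share with AT-1 genes differed by -1.87 points, by -7.02 to 5.30 with a library left out and by 10.5 without thinning. The cause of these changes was not tested. A minimum of 10 cells for the per-cell measures left 1 metastasis library and gave no value.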
